A study of Mus musculus with 11 samples.

Results

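Plagl1 transcript levels divided 11 clonal lines of mouse embryonic stem cells into 5 clones with a high level and 6 clones with a low level. Members of each group were chosen by the Plagl1 read count alone, expressed as CPM, the count of a gene scaled to the total of its library. Clones 17, 18, 19, 21 and 22 lay above 50 CPM and are called high clones, and clones 16, 20, 23, 24, 25 and 26 lay below 20 CPM and are called low clones. Together they are all 11 clones of the series. The labels describe every clone alike, so the groups come from a measured level and are neither treatments nor genotypes. All clones derive from EBRTcH3, a mouse embryonic stem cell line in which the ROSA26 promoter drives a tetracycline-controlled transactivator. Each carries several piggyBac reporters, barcoded and read from the mPGK promoter, inserted by a transposase, and grew from a single cell clone picked after sorting for strong eGFP. High and low clones were grown in the same medium, conditioned by BRL cells and supplied with leukemia inhibitory factor, the MEK inhibitor PD0325901 and the GSK-3 inhibitor CHIR99021. RNA of each clone was sequenced as 1 library, so spread between clones and spread between libraries cannot be told apart, and p-values measure both together. The tests treat the clones as independent, although some share chromosome stretches with shifted levels.

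Plagl1, also known as Zac1, encodes a zinc finger transcription factor that can halt the cell cycle and promote cell death. The gene is imprinted: most tissues read only the paternal copy, while the promoter of the maternal copy carries DNA methylation. In other tissues it has been placed in a network of imprinted growth genes that includes Igf2, Cdkn1c, Dlk1 and Grb10, and has been linked to genes of the extracellular matrix. Pkd2l1, a marker named with Plagl1, encodes a cation channel of the polycystin family.

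The promoter of Plagl1 is printed because its transcript defines the groups, and those of Gstp3, Rec114 and Smtnl1 as examples of genes with a low p in the group test or with the Plagl1 level as a continuous term. Ttc25, also among them, is not printed. Each is the RefSeq sequence on GRCm38.p6 from 250 bases before to 50 bases after a transcript start, with CpG dinucleotides in capitals. The windows are chr10:13090582-13090881 on the plus strand, chr19:4059398-4059697 on the minus strand, chr9:58741510-58741809 on the minus strand and chr2:84822603-84822902 on the minus strand.
Plagl1: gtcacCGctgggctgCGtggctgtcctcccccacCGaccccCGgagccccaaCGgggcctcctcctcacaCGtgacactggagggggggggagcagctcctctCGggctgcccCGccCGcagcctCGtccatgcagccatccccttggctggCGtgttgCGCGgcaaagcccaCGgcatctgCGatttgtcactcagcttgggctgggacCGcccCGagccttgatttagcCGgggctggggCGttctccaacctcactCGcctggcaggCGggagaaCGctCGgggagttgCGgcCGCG
Gstp3: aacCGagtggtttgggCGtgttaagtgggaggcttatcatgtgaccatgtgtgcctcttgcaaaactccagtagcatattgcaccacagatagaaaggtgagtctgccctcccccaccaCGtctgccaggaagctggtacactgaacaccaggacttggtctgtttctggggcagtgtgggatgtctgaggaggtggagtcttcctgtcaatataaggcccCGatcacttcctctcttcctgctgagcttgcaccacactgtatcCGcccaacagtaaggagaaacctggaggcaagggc
Rec114: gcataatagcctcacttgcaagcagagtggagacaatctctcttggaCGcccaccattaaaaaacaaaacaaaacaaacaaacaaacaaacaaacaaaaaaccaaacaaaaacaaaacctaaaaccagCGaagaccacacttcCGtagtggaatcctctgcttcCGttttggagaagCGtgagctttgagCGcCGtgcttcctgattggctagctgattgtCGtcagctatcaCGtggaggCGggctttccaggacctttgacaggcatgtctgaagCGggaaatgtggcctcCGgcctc
Smtnl1: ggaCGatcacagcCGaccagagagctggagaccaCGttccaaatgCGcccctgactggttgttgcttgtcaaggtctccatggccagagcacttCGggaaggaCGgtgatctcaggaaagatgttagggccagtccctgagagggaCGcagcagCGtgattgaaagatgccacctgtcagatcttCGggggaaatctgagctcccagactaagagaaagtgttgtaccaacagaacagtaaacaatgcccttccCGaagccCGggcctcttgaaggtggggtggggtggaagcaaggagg
CpG dinucleotides numbered 26 in the Plagl1 window, 12 in that of Rec114, 11 in that of Smtnl1 and 5 in that of Gstp3, against a median of 20 over 12517 promoters of the genes tested. The core motif of the PLAG family with its G cluster (GGGGC followed after 7 bases by GGG, on either strand) was found in 14.1% of those promoters and in 0 of the 4 printed. Of promoters of genes with every high clone above every low clone 9.17% (11 of 120, from 87 genes) held the core motif. For genes with every high clone below, 17.5% did (7 of 40, from 28 genes). The difference between these shares was not tested.

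Libraries held from 10846005 to 16868500 counts, so that 3 counts were worth 0.178 to 0.277 CPM. Pluripotency genes, 19 of 19 tested, summed to 10299 to 12246 CPM in the high and 11365 to 12477 CPM in the low clones. Markers of other cells were far lower, and their sums overlapped between the groups. Primitive endoderm markers (5 of 10 with a mean of at least 1 CPM) summed to 39.5 to 49.99 CPM in the high and 34.3 to 49.9 CPM in the low clones. Mesoderm and primitive streak markers (2 of 8) summed to 11.96 to 18.6 CPM in the high and 5.78 to 19.6 CPM in the low clones, and trophoblast markers (5 of 8) to 67.2 to 136 CPM in the high and 68.5 to 92.5 CPM in the low clones. For fibroblast markers (4 of 10), led by Vim, the sums were 184 to 254 CPM in the high and 183 to 356 CPM in the low clones. For neural markers (4 of 8) they were 71.9 to 128 CPM in the high and 51.2 to 95.1 CPM in the low clones. None of the measured markers was at 0 in every library. Clones 20 and 23, both low, were the most alike pair (Pearson r = 0.995 across genes), and clone 19 had the lowest median r with the others (0.961).

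Plagl1 itself stood at 61.3 CPM in clone 17, 121 in clone 18, 275 in clone 19, 260.4 in clone 21 and 134 in clone 22. The low clones 16, 20, 23, 24, 25 and 26 stood at 5.35, 17.4, 7.88, 0.567, 2.54 and 16.4 CPM. Clone 24 is the lowest of all, with 9 counts of Plagl1, and clones 19 and 21 are the highest. The clones next to the thresholds are clone 17 above and clone 20 below, and no clone lies between. Since these values formed the groups, they carry no test. In bulk libraries, fewer cells with the transcript and less transcript per cell cannot be told apart.

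Pkd2l1 followed Plagl1 in part. It stood at 27.5, 8.48, 26.3, 38.5 and 41.9 CPM in the high clones 17, 18, 19, 21 and 22, and at 1.38, 8.65, 12.9, 1.83, 4.41 and 16.1 CPM in the low clones 16, 20, 23, 24, 25 and 26. Clone 18 lies below clones 20, 23 and 26, so the groups overlap, while the other 4 high clones exceed every low clone. The gene was named as a marker with its values known and is described without a test. It lies in a stretch of chromosome 19 that is higher as a whole in clone 17.

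**Figure D1:**
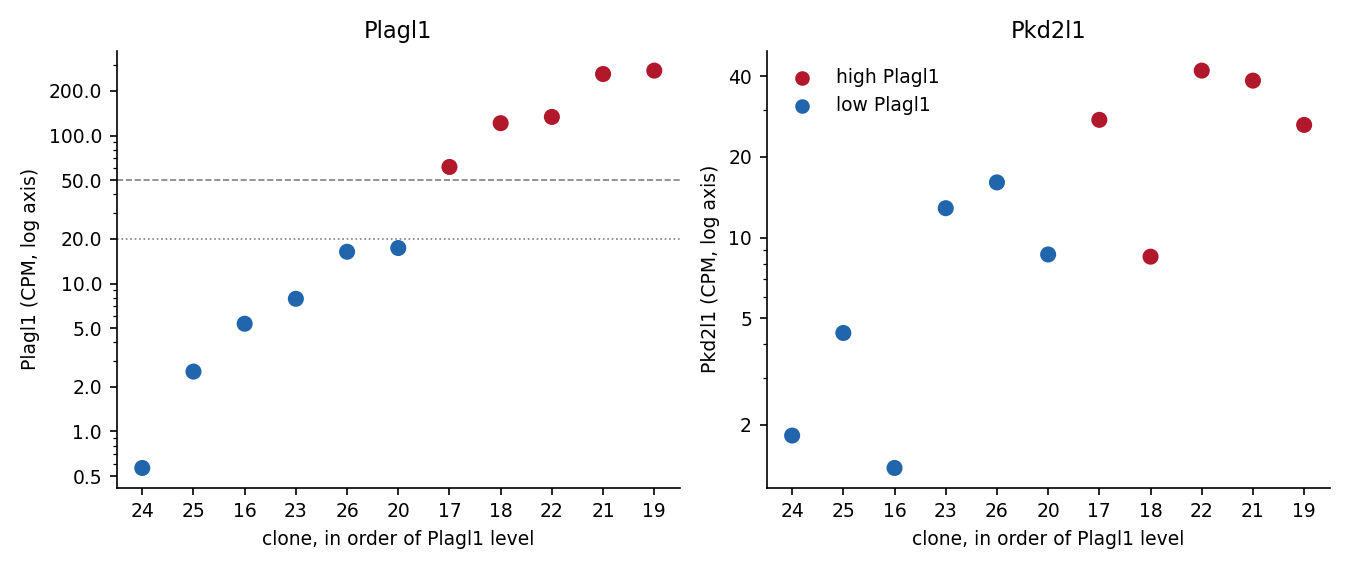
Levels of Plagl1 (left) and Pkd2l1 (right) in CPM on log axes, 1 point per clone, with clones in the order of their Plagl1 level, high clones in red and low clones in blue, and lines at 50 CPM (dashed) and 20 CPM (dotted). Plagl1 ends at 17.4 CPM among low clones and starts at 61.3 CPM among high clones, whereas Pkd2l1 in clone 18 (8.48 CPM) lies within the range of the low clones.

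All other genes were then compared between the 5 high and 6 low clones. In the quasi-likelihood test of edgeR, with p adjusted after Benjamini and Hochberg, 0 of 12484 genes had an adjusted p of 0.05 or less (0% called). Genes averaging under 1 CPM over the 11 clones were left out. At an unadjusted p under 0.05 there were 1270 (10.2% of those tested), of which 663 were higher (5.31%) and 607 lower (4.86%) in the high clones. Another test, the DESeq2 Wald test, called 89 genes, 60 higher and 29 lower, and in 52 of them the groups did not overlap. Over all tested genes 146 had groups that did not overlap (1.17%), 107 with the high clones above (0.857%) and 39 with the high clones below (0.312%). The median log2 fold change of all genes was -0.00.

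Genes with the lowest p that were higher in the high clones belong to different families. Gstp3, a pi class glutathione S-transferase, stood at 8.49, 8.90, 8.39, 9.30 and 9.02 CPM in clones 17, 18, 19, 21 and 22. The low clones ran from 3.28 to 4.81 CPM (median 3.59). High clones thus had nearly equal Gstp3 levels, above every low clone, although their Plagl1 levels spread widely. The log2 fold change was 1.13 ± 0.15 (standard error, SE), with an adjusted p of 0.0907 by edgeR (2.71e-09 to 0.291 over 21 alternatives). Gstp3 has close relatives in Gstp1 and Gstp2, and how reads shared between copies were treated is not given. It also lies in the chromosome 19 stretch that is higher in clone 17.

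Rec114, which takes part in the formation of meiotic DNA breaks, stood at 11.6, 12.5, 7.44, 14.1 and 10.96 CPM in clones 17, 18, 19, 21 and 22, while the low clones ran from 3.33 to 5.51 CPM (median 4.81). The groups do not overlap, and clone 19 is the lowest of the high clones. The log2 fold change was 1.25 ± 0.19 (SE; adjusted p = 0.164 by edgeR, 6.62e-06 to 0.694 over 22 alternatives), and without clone 19 the adjusted p was 0.0472 by edgeR. Ttc25, which encodes a factor for docking dynein arms in cilia, stood at 21.5, 20.5, 33.02, 28.1 and 20.2 CPM in the same clones, and its low clones ran from 2.77 to 10.9 CPM (median 5.93). Clones 19 and 21, highest in Plagl1, were also highest in Ttc25. The log2 fold change was 1.87 ± 0.32 (SE; adjusted p = 0.195 by edgeR, 2.04e-05 to 0.477 over 22 alternatives).

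Pde1b, a phosphodiesterase that breaks down cyclic nucleotides, stood at 17.4, 16.2, 19.2, 17.96 and 19.01 CPM in clones 17, 18, 19, 21 and 22, and its low clones ran from 8.65 to 12.6 CPM (median 9.89). Its log2 fold change was 0.75 ± 0.13 (SE; adjusted p = 0.195 by edgeR, 2.04e-05 to 0.698 over 21 alternatives). Pde1b lies in a stretch of chromosome 15 that is higher in clones 16, 18 and 19. Clone 16, with that stretch, stood at 9.59 CPM, and clones 21 and 22, without it, stood at 17.96 and 19.01 CPM. Mettl26 ran from 13.8 to 21.4 CPM in the high and from 9.22 to 12.1 CPM in the low clones, and Sh3tc1 from 51.7 to 72.4 CPM in the high and from 31.4 to 49.5 CPM in the low clones. Neither overlaps, and log2 fold changes were 0.72 ± 0.14 and 0.61 ± 0.13 (SE). Neither passed by edgeR (adjusted p = 0.293 and 0.293), and DESeq2 called both (adjusted p = 0.00296 and 0.00568).

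Among genes lower in the high clones, Efna3, which encodes an ephrin, a ligand for Eph receptors, stood at 3.24, 5.22, 5.83, 6.90 and 4.87 CPM in clones 17, 18, 19, 21 and 22. The low clones ran from 8.30 to 11.9 CPM (median 10.02), all above the high clones. The log2 fold change was -1.01 ± 0.18 (SE; adjusted p = 0.242 by edgeR, 6.41e-05 to 0.725 over 21 alternatives). Efna3 lies in a stretch of chromosome 3 that is higher in clone 16, where its level of 8.30 CPM was the lowest of the low clones. Clip3, which encodes a protein that binds microtubules, ran from 2.68 to 5.90 CPM in the high and from 5.75 to 18.02 CPM in the low clones, highest in clone 24. Its groups overlap slightly, and its log2 fold change was -1.36 ± 0.29 (SE; adjusted p = 0.293 by edgeR, 0.00525 to 0.725 over 22 alternatives).

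The other 4 lower genes were more abundant and differed less. Morf4l2, a subunit of chromatin complexes, ran from 382 to 448 against 449 to 569 CPM, and Desi2 from 49.3 to 72.6 against 75.8 to 99.3 CPM, both without overlap. Hmgb1, a DNA-binding chromatin protein, ran from 174 to 228 against 226 to 264 CPM, and Dkc1, the pseudouridine synthase dyskerin, from 241 to 313 against 295 to 374 CPM, both with overlap. Log2 fold changes were -0.38 ± 0.08, -0.46 ± 0.11, -0.35 ± 0.08 and -0.36 ± 0.09 (SE). None passed by edgeR, and DESeq2 called all 4, with adjusted p of 0.00525, 0.031, 0.0109 and 0.0276.

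**Figure D2:**
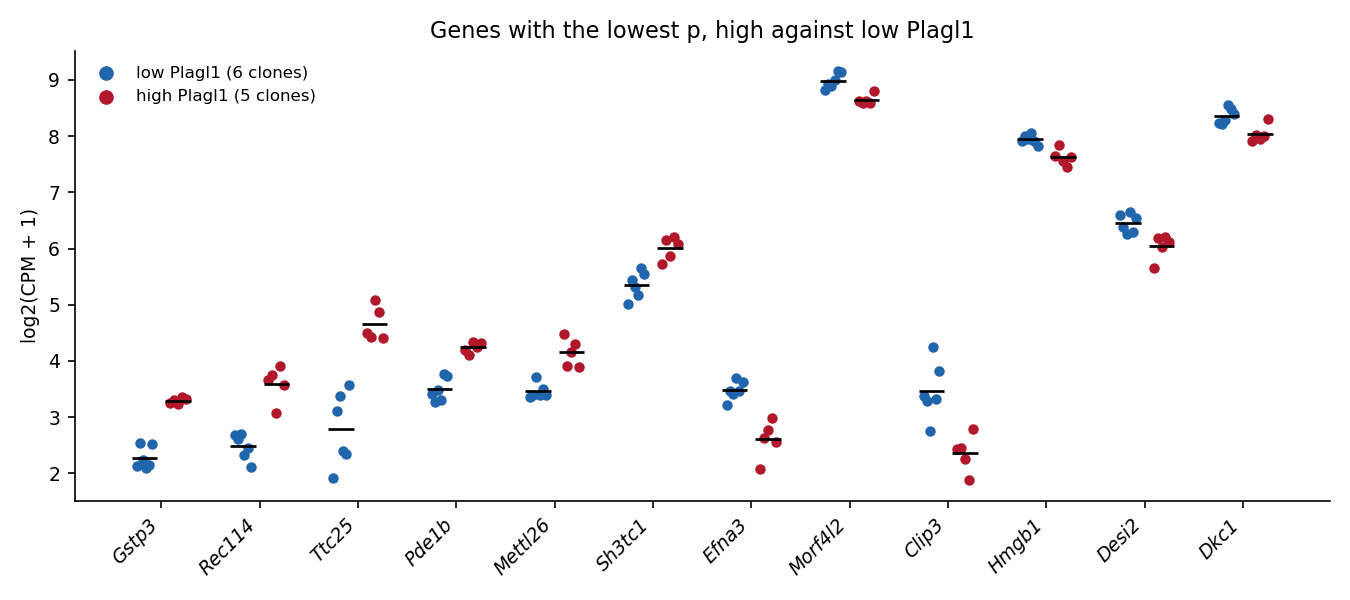
Levels as log2(CPM + 1) of the 12 genes with the lowest p at a mean of at least 5 CPM, 6 higher (left) and 6 lower (right) in the high clones, with 1 point per clone (low in blue, high in red) and a bar at each group mean. Gstp3 of the high clones clusters at 8.39 to 9.30 CPM above every low clone, and Clip3, Hmgb1 and Dkc1 overlap between the groups.

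With log2(Plagl1 CPM + 1) as a continuous term in place of the groups, edgeR called 4 genes. Smtnl1, a smoothelin-like gene known from muscle, rose by 0.49 ± 0.06 log2 units for each unit of the term (SE; adjusted p = 0.0104 by edgeR). It stood at 4.32, 3.76, 9.16, 5.64 and 5.64 CPM in clones 17, 18, 19, 21 and 22, and the low clones ran from 0.448 to 2.58 CPM (median 1.35). Ttc25 rose by 0.42 ± 0.05 (SE; adjusted p = 0.0104 by edgeR) and Gstp3 by 0.23 ± 0.03 (SE; adjusted p = 0.0261 by edgeR). The fourth, the bile acid receptor gene Gpbar1 (slope -2.09 ± 0.28, SE; adjusted p = 0.0261 by edgeR), rests on clone 24, at 28.98 CPM against 0 to 0.184 CPM in the other 10 clones. Without clone 24 edgeR called 0 genes (809 at an unadjusted p under 0.05), while the slopes of Gstp3, Ttc25 and Smtnl1 were 0.25, 0.45 and 0.50, with adjusted p of 0.148, 0.0668 and 0.0668. Without clone 19 edgeR called 3, namely Gstp3, Smtnl1 and Ttc25. Smtnl1 and Gpbar1 were singled out after their values were seen.

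Imprinted genes other than Plagl1 lay on both sides of no difference. Of 61 listed, 58 were in the table and 43 were tested. None passed (0 of 43 by edgeR, against 0% of all genes), DESeq2 called 1, and 6 had an unadjusted p under 0.05 (14.0%, against 10.2% of all genes). Groups overlapped in all 43, which does not set them apart, since only 1.17% of all genes had groups that did not overlap. Log2 fold changes lay above 0 in 23 and below 0 in 20, with a median of 0.03, against -0.00 over all genes.

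Genes listed as paternally expressed, as Plagl1 is, numbered 19 tested, 14 of them with a fold above 0, and their median log2 fold change was 0.13. Which parental copy these clones read was not measured, for Plagl1 or for members of either imprinted list. Zrsr1, which encodes a splicing factor related to U2AF, was the 1 member with an unadjusted p under 0.05 (5.26%, against 5.31% of all genes higher at that p). It stood at 25.6, 33.3, 37.002, 30.3 and 24.7 CPM in clones 17, 18, 19, 21 and 22. Of the low clones 5 stood at 16.7 to 19.7 CPM and clone 20 at 26.4 CPM. Clone 20 alone makes the groups overlap, and it has the highest Plagl1 level of the low clones (17.4 CPM). Clone 26, close to it in Plagl1 (16.4 CPM), had the lowest Zrsr1 level of all clones (16.7 CPM). The log2 fold change was 0.60 ± 0.15 (SE; adjusted p = 0.329 by edgeR and 0.0265 by DESeq2, 0.0265 to 0.636 over 22 alternatives). Zrsr1 lies within an intron of Commd1, and whether reads were counted by strand is not given.

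The other paternally expressed genes named here are the most abundant. Slc38a4, an amino acid transporter gene, ran from 417 to 941 CPM in the high and from 196 to 526 CPM in the low clones, with a log2 fold change of 0.54 ± 0.25 (SE; adjusted p = 0.492 by edgeR), and of 0.34 ± 0.24 without clone 17, its highest. It lies in the chromosome 15 stretch that is higher in clones 16 to 19, and its lowest level was in clone 16. Impact, which restrains a kinase of the amino acid stress response, ran from 397 to 535 against 305 to 623 CPM, and Zdbf2 from 184 to 414 against 145 to 422 CPM. Peg3, a zinc finger gene, ran from 57.9 to 144 against 101 to 203 CPM and was highest in clone 24, where Plagl1 was lowest. Its next highest levels were in the high clones 21 and 22 (144 and 134 CPM).

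Genes listed as maternally expressed numbered 24 tested, 15 with a fold below 0, and their median log2 fold change was -0.09. The 5 members with an unadjusted p under 0.05 (20.8%) were all lower in the high clones, against 4.86% of all genes lower at that p. Grb10, which encodes an adaptor that restrains insulin receptor signalling, stood at 38.2, 253, 30.5, 165 and 108 CPM in clones 17, 18, 19, 21 and 22, and at 404, 185, 269, 412, 183 and 172 CPM in clones 16, 20, 23, 24, 25 and 26. Clones 17 and 19 lie far below the rest, and clone 18 lies among the low clones. The log2 fold change was -1.23 ± 0.50 (SE; adjusted p = 0.451 by edgeR, 0.32 to 0.761 over 22 alternatives).

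The other 4 differed little and overlapped between the groups. Cd81, a tetraspanin gene, ran from 221 to 267 against 257 to 317 CPM, and Blcap from 32.1 to 39.3 against 35.1 to 48.6 CPM. Ube3a, a ubiquitin ligase gene, ran from 105 to 127 against 121 to 130.0 CPM, and Nap1l4, a histone chaperone gene, from 156 to 187 against 159.7 to 198 CPM. Their log2 fold changes were -0.29 ± 0.08, -0.30 ± 0.10, -0.14 ± 0.06 and -0.16 ± 0.07 (SE). Nnat lies within Blcap, so that reads of the pair may not be separable. Among the most abundant maternally expressed genes, Cobl, an actin nucleator gene, ran from 505 to 766 against 500.4 to 782 CPM, and Igf2r, a receptor that clears Igf2, from 275 to 624 against 326 to 479.8 CPM.

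**Figure D3:**
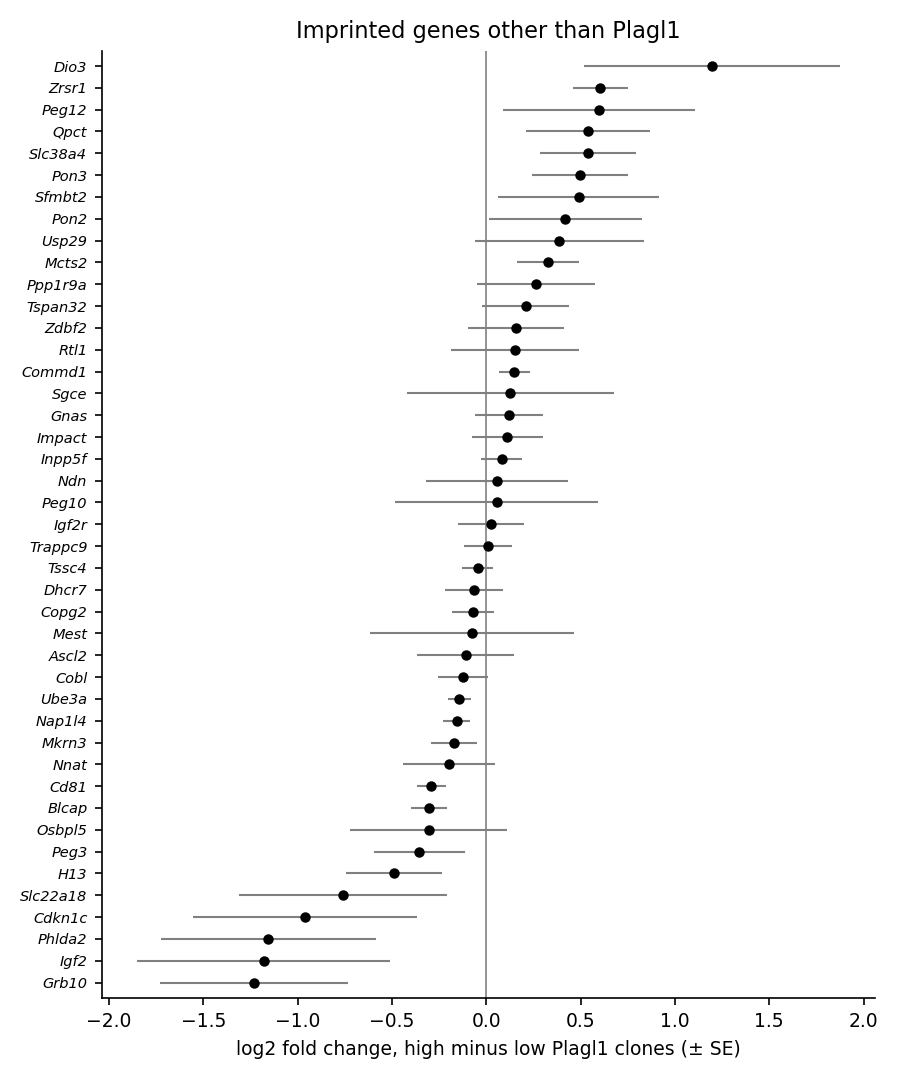
Log2 fold change, high against low clones, of the 43 tested imprinted genes other than Plagl1, in order of size, with bars of 1 SE on each side from the edgeR fit. Folds run from -1.23 (Grb10) to 1.20 (Dio3) on both sides of 0, and no gene passed the adjusted threshold by edgeR.

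Genes that other work ties to Plagl1 also gave no calls. Of the 16 genes of the imprinted network 12 were tested, with 0 called, 1 (Grb10) at an unadjusted p under 0.05, 6 folds above and 6 below 0, and a median log2 fold change of -0.02. Of 12 reported targets 7 were tested, with 0 called by edgeR, 0 by DESeq2 (which gave Igf2 no adjusted p) and 0 at an unadjusted p under 0.05, and their median was -0.20. Socs3, a feedback inhibitor of cytokine signalling, ran from 103 to 132 against 73.5 to 139.7 CPM, and the transcription factor gene Tcf4 from 75.1 to 138 against 70.3 to 111 CPM. Cdkn1a, the cell cycle inhibitor p21, stood at 72.4 ± 30.3 CPM (SD, n = 5) in the high and 72.5 ± 27.3 CPM (SD, n = 6) in the low clones. Apaf1, the scaffold of the apoptosome, stood at 58.4 ± 8.81 CPM (SD, n = 5) in the high and 65.4 ± 10.7 CPM (SD, n = 6) in the low clones. The growth factor gene Igf2 and the cell cycle inhibitor gene Cdkn1c were low in most clones. Igf2 ran from 0.704 to 3.75 against 1.34 to 14.9 CPM and Cdkn1c from 0.231 to 5.22 against 2.54 to 9.95 CPM, with log2 fold changes of -1.18 ± 0.67 and -0.96 ± 0.59 (SE). Igf2 was at 14.9 CPM in clone 16, and without that clone its log2 fold change was -0.15 ± 0.40 (SE). Pparg had no count in any library.

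The relatives and partners of Plagl1 (6 of 6 tested) had 0 calls and a median log2 fold change of -0.08. Plagl2 and Plag1, named because they complete the family, ran from 25.8 to 39.2 against 29.6 to 35.5 CPM and from 20.5 to 28.5 against 18.1 to 29.2 CPM. Trp53, which encodes the tumour suppressor p53, ran from 328 to 477 against 350.2 to 443 CPM.

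Cell cycle and arrest genes (19 of 21 tested) had 0 calls and a median log2 fold change of -0.11, with 5 lower at an unadjusted p under 0.05, namely Mdm2, Cdk2, Ccng1, Ccnb1 and Cdkn1b. That is 26.3% of those tested, against 4.86% of all genes. Among them Ccng1, a target of p53, ran from 145 to 234 against 189.6 to 415 CPM, highest in clones 24 and 26. Extracellular matrix genes (24 of 32 tested) had 0 calls and a median of 0.03. Fn1, which encodes fibronectin, stood at 5399.7 ± 518 CPM (SD, n = 5) in the high and 5251 ± 1188 CPM (SD, n = 6) in the low clones. Genes of ERK feedback (11 of 12 tested) had 0 calls and a median of 0.03. Pluripotency genes had 0 calls and a median of -0.05, with 15 of 19 folds below 0. Of them 2 were lower at an unadjusted p under 0.05 (10.5%, against 4.86% of all genes).

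Genes of DNA methylation and imprint upkeep (21 of 21 tested) had 0 calls, and 1 was lower at an unadjusted p under 0.05. That gene, Trim28, encodes the corepressor that Zfp57 recruits to imprints, and it ran from 1592 to 1814 against 1784 to 1974 CPM. Zfp57 itself ran from 458 to 624 against 409 to 755 CPM. Tet1, an enzyme that oxidizes methylated cytosine, ran from 766 to 1201 against 786 to 1202 CPM, with its lowest level in clone 19. Uhrf1, which guides maintenance methylation, ran from 582 to 875 against 519.9 to 809 CPM. In the polycystin family 4 of 7 genes were tested, with 0 calls, and Pkd2, a channel subunit, ran from 89.03 to 156 against 128 to 148 CPM. Of 6 tested Y-linked genes 0 passed, and their sum was 313 to 565 CPM in the high and 0.945 to 538 CPM in the low clones, lowest in clone 24.

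None of the genes beside Plagl1 on chromosome 10 passed the test. Of the 5 nearest protein-coding genes on each side 8 were tested, with 0 called by edgeR, 0 at an unadjusted p under 0.05 and log2 fold changes of -0.05 to 0.15. Sf3b5, a splicing factor subunit gene next to Plagl1, ran from 47.4 to 62.3 against 40.8 to 50.2 CPM. On the other side Ltv1, which acts in ribosome assembly, ran from 95.05 to 103 against 88.6 to 100.3 CPM, and farther out Utrn, which encodes utrophin, ran from 254 to 281 against 233 to 295 CPM. Stx11 and Zc2hc1b, the remaining neighbours, had at most 0.315 CPM in any clone. None of the 8 lies in a stretch that is shifted in a clone.

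**Figure D4:**
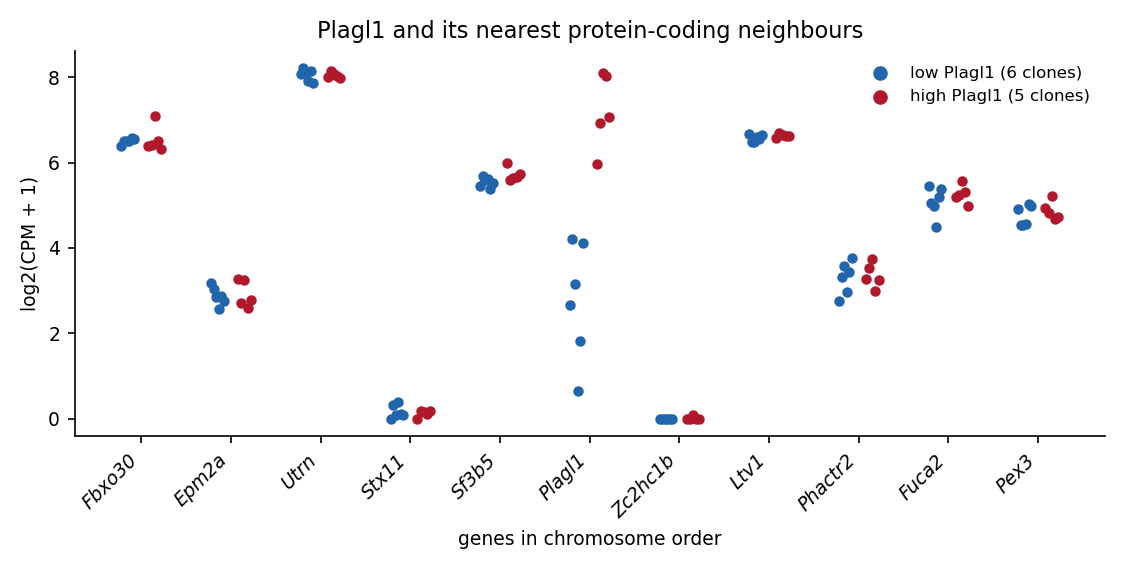
Levels as log2(CPM + 1) of Plagl1 and its 5 nearest protein-coding genes on each side, 1 point per clone (low in blue, high in red), in chromosome order and not to distance. Plagl1 separates the groups by construction, and the points of its neighbours intermix.

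Of the 10 genes beside Pkd2l1 on chromosome 19, 7 were tested, with 0 called by edgeR and 0 at an unadjusted p under 0.05, and their median log2 fold change was 0.23. Scd2, a fatty acid desaturase gene, ran from 783 to 1258 against 574 to 939.8 CPM, and Cwf19l1 ran from 27.3 to 39.96 against 25.04 to 27.6 CPM. Both were highest in clone 17, and all 7 lie in the stretch that is higher in that clone.

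The X-linked Xlr3, Xlr4 and Xlr5 genes had their highest levels in clones 21 and 22. This family, in which some copies are imprinted in mouse brain, was singled out after its values were seen and has no test of its own. Xlr3a stood at 4.63, 5.63, 8.21, 12.6 and 12.7 CPM in clones 17, 18, 19, 21 and 22, and its low clones ran from 0.252 to 4.0 CPM (median 1.58). Xlr3b stood at 8.79, 8.07, 11.4, 15.7 and 16.5 CPM in the same clones, and its low clones ran from 0.315 to 8.30 CPM (median 2.83). Clones 21 and 22 were the highest for each of the 9 members. Xlr5b stood at 0.231, 0, 0, 1.27 and 3.11 CPM in clones 17, 18, 19, 21 and 22 and at 0 to 0.163 CPM in the low clones. In Xlr3a, Xlr4a and Xlr4b every high clone lay above every low clone, and in the other 6 the groups overlapped. Over all genes tested 0.857% had every high clone above. Of the 9 members 7 were tested, with adjusted p of 0.293 to 0.412 by edgeR. DESeq2 called Xlr3a, Xlr4a, Xlr4b and Xlr5a, with adjusted p of 0.0158, 0.00525, 0.0475 and 0.0276. The copies are nearly identical, so reads may be split or shared among them.

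**Figure D5:**
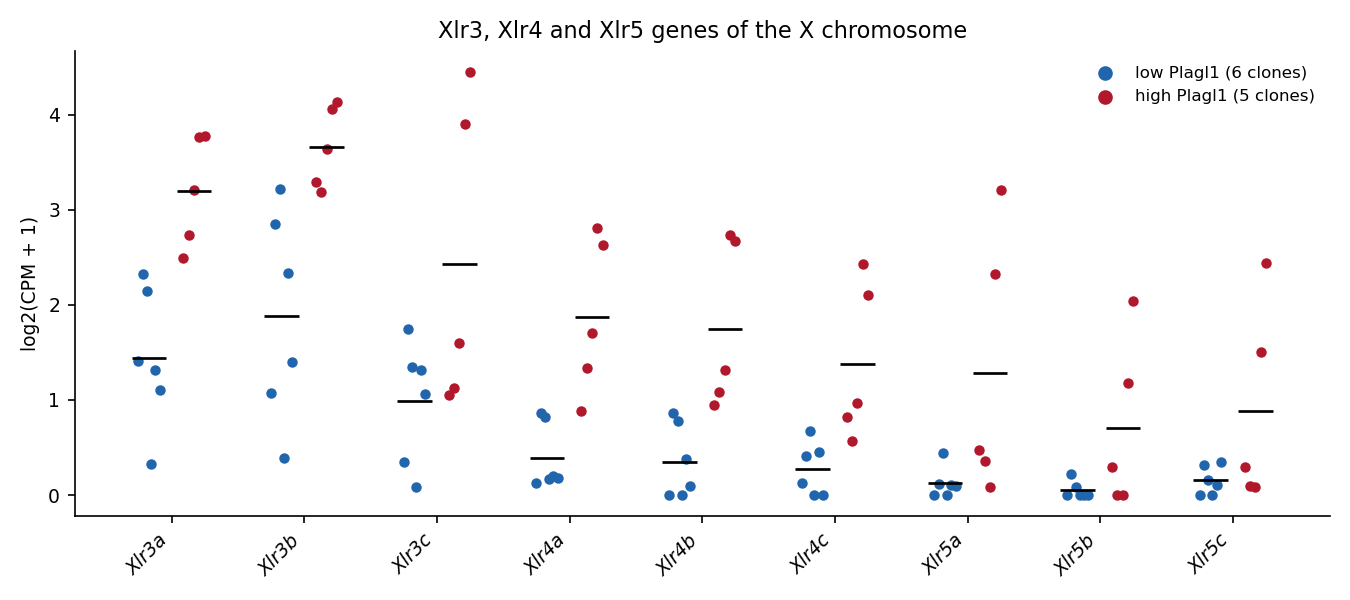
Levels as log2(CPM + 1) of the 9 Xlr3, Xlr4 and Xlr5 genes, 1 point per clone (low in blue, high in red) with a bar at each group mean. Clones 21 and 22 are the 2 highest points of every gene, and the groups stand apart for Xlr3a, Xlr4a and Xlr4b.

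Stretches of several chromosomes stood higher or lower in single clones or in clones of both groups. A stretch of 113 genes of chromosome 1 was higher in clones 20 and 23, both low clones. Median log2 fold changes were 0.15 over chromosome 15, 0.14 over chromosome 19, 0.11 over chromosome 8 and -0.13 over chromosome 3. Stretches of chromosome 15 were higher in clones 16, 17, 18 and 19, of chromosome 19 in clone 17, of chromosome 8 in clone 22 and of chromosome 3 in clone 16. Lower stretches included 245 genes of chromosome 4 in clone 19, 190 of chromosome 14 in clone 21 and 67 of chromosome 17 in clone 25. Clones 16, 17 and 19 each had a higher and a lower stretch of chromosome 14. At an unadjusted p under 0.05, 56 of 669 genes tested on chromosome 8 were higher and 1 lower. On chromosome 19, 46 of 423 were higher and 1 lower, on chromosome 15, 41 of 487 were higher and 13 lower. On chromosome 3, 9 of 566 were higher and 59 lower, and on chromosome 1, 27 of 685 were higher and 53 lower. Over all genes 5.31% were higher and 4.86% lower at that p. Of the 146 genes without overlap 32 lay in a stretch shifted in 1 clone or more, against 2753 of the 12484 tested. With those and Y-linked genes left out, 0 of 9725 genes passed by edgeR and 1081 had an unadjusted p under 0.05.

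With the level of the chromosome 15 stretch as a covariate edgeR called 6 genes, all higher in the high clones: Efhc2, Xlr5a, Gm13128, Ace, Gstp3 and Xlr4a. They are named after their values were seen. In 3 of the 6, namely Efhc2, Xlr5a and Ace, the groups overlapped. Gm13128 lies in a stretch of chromosome 4 that is lower in clones 16 and 19. It stood at 3.70, 3.48, 3.93, 13.6 and 11.7 CPM in clones 17, 18, 19, 21 and 22, and its low clones ran from 1.38 to 3.36 CPM. Xlr5a stood at 0.386, 0.278, 0.0595, 4.02 and 8.24 CPM in the same high clones, and its low clones ran from 0 to 0.356 CPM. Ace, which encodes angiotensin-converting enzyme, stood at 10.8, 16.8, 6.48, 21.7 and 23.2 CPM in clones 17, 18, 19, 21 and 22, and its low clones ran from 3.81 to 8.74 CPM (median 5.56). Efhc2 was high in clones 21 and 22, at 19.2 and 17.5 CPM, against 0.184 to 2.36 CPM in the other 9 clones. Efhc2 and the Xlr genes are on the X chromosome and are all highest in that pair of clones.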

How the data were processed

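Libraries were made with the Illumina TruSeq RNA kit, per the labels' protocols. The authors deposited raw read counts per Ensembl gene, 22369 mouse IDs by 11 libraries. TopHat 1.4.0, Bowtie 0.12.7 and the builds mm9 and hg19 are named per the submitters' processing notes. For the counting tool and the strand setting, the sources used here give nothing. Symbols were found for 20777 IDs, and IDs without one held 0.401% of counts.

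Counts were tested in R 4.3.3 with edgeR 4.0.16 (quasi-likelihood, TMM factors 0.971 to 1.04) on genes averaging 1 CPM or more, Plagl1 left out, with Benjamini-Hochberg adjustment over all genes. DESeq2 1.42.0 served as an alternative. The common coefficient of variation was 23.7%. The code was tested on simulated data. Shifted stretches were runs of 25-gene windows beyond 0.36 on the log2 scale, in gene order of GRCm38, used for names and order only. Promoters came from RefSeq. Most genes are named by rule: lowest p at a mean of at least 5 CPM (6 in each direction, since 0 passed) and neighbours. The rule also takes up to 4 most abundant members of each list and imprinted genes at an unadjusted p under 0.05. Genes outside it include Igf2, Cdkn1c, Dppa3 and Kdm5d, and those said to be singled out after their values were seen. The groups, members and lists were chosen with earlier results of these data known. Other normalizations, filters, a continuous term, a chromosome 15 covariate and leaving out each clone were tried.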

Additional observations from a re-analysis of the deposited data

Results flagged for a closer look

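Single clones that stood far from the rest of their group, by the gap to the nearest clone over the range of the group (Dixon's 95% critical value), are listed here. Of 198 groups of clones 20 stood out, and groups with every clone under 1 CPM were passed over. Chance alone marks about 1 group in 20. Some of these genes were singled out after their values were seen, so that rate is no yardstick for the 20.

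Clone 19 accounts for 6 of them. Pkd1 in clone 19 had 79.8 CPM, and the other high clones had 52.6 to 58.1 CPM. Tet1 in clone 19 had 766 CPM, and the other high clones had 1102 to 1201 CPM. Fbxo30 in clone 19 had 135 CPM, and the other high clones had 79.1 to 89.4 CPM. Map2 in clone 19 had 1.13 CPM, and the other high clones had 2.11 to 2.40 CPM. Msln in clone 19 had 25.996 CPM, and the other high clones had 2.57 to 8.18 CPM. Dppa3 in clone 19 had 23.97 CPM, and the other high clones had 0.141 to 3.39 CPM.

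Clone 24 accounts for 3. Igf2r in clone 24 had 326 CPM, and the other low clones had 441 to 479.8 CPM. Peg3 in clone 24 had 203 CPM, and the other low clones had 101 to 122 CPM. Gpbar1 in clone 24 had 28.98 CPM, and the other low clones had 0 to 0.184 CPM. Gpbar1 is the gene called with the continuous Plagl1 term through this clone.

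Clone 16 stood out for several genes. Ep300 in clone 16 had 460.4 CPM, and the other low clones had 271 to 336 CPM. Kdr in clone 16 had 2.21 CPM, and the other low clones had 0.544 to 0.897 CPM. Krt8 in clone 16 had 26.6 CPM, and the other low clones had 8.44 to 14.9 CPM. Igf2 in clone 16 had 14.9 CPM, and the other low clones had 1.34 to 2.77 CPM. Ep300 and Krt8 lie in stretches of chromosome 15 that are higher in clone 16.

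Clones 20, 22 and 26 account for the remainder. Zrsr1 in clone 20 had 26.4 CPM, and the other low clones had 16.7 to 19.7 CPM. Morf4l2 in clone 22 had 448 CPM, and the other high clones had 382 to 394 CPM. Dkc1 in clone 22 had 313 CPM, and the other high clones had 241 to 259 CPM. Kdm5d in clone 22 had 7.46 CPM, and the other high clones had 0.139 to 1.27 CPM. Cdkn1a in clone 26 had 124 CPM, and the other low clones had 41.3 to 71.9 CPM. Nes in clone 26 had 26.7 CPM, and the other low clones had 10.96 to 16.3 CPM. Dppa3 in clone 26 had 5.03 CPM, and the other low clones had 0.189 to 1.48 CPM.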

How the results depend on the processing

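By edgeR, 0 genes were called with DESeq2 size factors, with column totals alone, with a minimum mean of 5 CPM, without a filter, with clones 20 and 23 summed, and without segment and Y-linked genes. The DESeq2 Wald test called 89 genes (60 higher, 29 lower), the continuous Plagl1 term 4 (3 higher, 1 lower), and the chromosome 15 covariate 6, all higher. The continuous term without clone 19, chosen after seeing the data, called 3, and without clone 24, also chosen after seeing the data, 0. Leaving out each clone in turn gave 0 to 1 calls, the 1 being Rec114 without clone 19 (adjusted p = 0.0472 by edgeR), and 930 to 1601 genes at an unadjusted p under 0.05. The cause of these differences was not tested. Among imprinted genes DESeq2 called 1, Zrsr1 (adjusted p = 0.0265), and leaving out each clone in turn gave 0 calls by edgeR, with 3 to 8 at an unadjusted p under 0.05. Reported targets had 0 calls under every alternative run. The 18 genes chosen by p, alone or within the imprinted lists, kept their direction under every alternative in which they were tested. Of these, 13 passed by DESeq2, which called 89 of 12484 genes. They were chosen for a low p in this same comparison of the same clones, so neither count is independent support. No paired analysis was possible because the labels give 1 group and the replicate numbers are clone names. Levels near 3 counts, as for Cdkn1c and several Xlr genes, limit what can be compared.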

Other observations

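Neural markers went both ways. Nes, an intermediate filament gene of neural progenitors, stood at 46.8, 21.1, 78.2, 18.1 and 31.01 CPM in clones 17, 18, 19, 21 and 22, and its low clones ran from 10.96 to 26.7 CPM (median 12.01). Map2, a microtubule-associated protein gene of neurons, ran from 1.13 to 2.40 CPM in the high and from 2.58 to 4.03 CPM in the low clones, without overlap. Log2 fold changes were 1.34 ± 0.38 and -0.73 ± 0.24 (SE), with adjusted p of 0.373 and 0.399 by edgeR, and DESeq2 gave 0.0496 and 0.166. Msln, which encodes the surface protein mesothelin, stood at 8.18, 2.57, 25.996, 3.03 and 3.05 CPM in clones 17, 18, 19, 21 and 22, above every low clone (0.224 to 1.57 CPM), with an adjusted p of 0.293 by edgeR and 9.45e-05 by DESeq2. Its log2 fold change was 3.54 ± 0.68 (SE). Nes, Map2 and Msln were singled out after their values were seen.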
